A study of Mus musculus with 24 samples.

Results

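The DLK to JNK kinase cascade and the SARM1 and NMNAT2 pair were followed at the RNA level in mouse dorsal root ganglia, where sensory neurons have their cell bodies. The 10 genes, chosen by name from 20782 genes in the deposited table, were the kinase genes Map3k12 (encoding DLK), Map3k13 (LZK), Map2k4 (MKK4), Map2k7 (MKK7), Mapk8 (JNK1), Mapk9 (JNK2) and Mapk10 (JNK3), the JNK scaffold gene Mapk8ip3 (JIP3), Sarm1 and Nmnat2. All 10 were present and all 10 passed the filter on low values in every comparison.

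Libraries came from 24 samples in 8 groups of 3, and the labels name no genotype, allele or drug for any group. Embryonic lumbar ganglia were of 2 ages, E12.5 and E17.5. Ganglia of adults, from levels L4 and L5, were taken after sham surgery or after a lesion labelled peripheral, which the series design calls conditioned. Adult lumbar ganglia were dissociated, plated at low density on laminin in Neurobasal-A with B-27, and collected 6, 12, 24 and 36 h later. The strain, the adult age, the nerve, the kind of lesion, the interval after it and the sex of the animals are not stated in the labels. Cell sorting is named in one protocol shared by all samples, so whether operated and embryonic ganglia were sorted is not known. The labels do not tie libraries to separate animals or cultures, so p-values below measure sample spread, part or all of which may be technical.

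In a damaged axon, DLK and the related kinase LZK are activated and phosphorylate the kinases MKK4 and MKK7, which phosphorylate the JNK enzymes. JIP3 binds JNK and the axonal motor kinesin and so links the cascade to axonal transport, and JNK phosphorylates the transcription factor c-Jun in the nucleus. NMNAT2 is a short-lived enzyme that makes NAD in the axon, and its loss after injury frees SARM1, which destroys NAD and so drives axon degeneration. All of these proteins are controlled largely by phosphorylation, turnover or metabolites, none of which was measured here.

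The genes lie apart in the genome (GRCm38, GENCODE M21 annotation), and all are annotated as protein coding. Map3k12 is at chr15:102497646-102517064 on the minus strand and Map3k13 at chr16:21794346-21933439 on the plus strand. Map2k4 is at chr11:65688243-65788297 on the minus strand and Map2k7 at chr8:4238740-4247897 on the plus strand. Mapk8 is at chr14:33377898-33447158 (minus), Mapk9 at chr11:49846751-49886421 (plus) and Mapk10 at chr5:102907948-103211334 (minus). Mapk8ip3 is at chr17:24892153-24936977 (minus), Sarm1 at chr11:78472330-78497754 (minus) and Nmnat2 at chr1:152954993-153119261 (plus). Some exons overlap exons of other genes, and the library kit does not mark strand. Pcbp2, on the opposite strand, covers 17.5% of the exon bases of Map3k12, and Gm49320, on the same strand, covers 35.2% of those of Map2k7. Eme2 and Mrps34 cover 10.7% and 8.99% of those of Mapk8ip3. How reads in shared exons were counted is not given, so levels of these 3 genes are uncertain to that extent.

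Promoter windows of 300 bases, from 250 before to 50 after an annotated start, were found for 10 of the 10 genes (15 windows, RefSeq, GRCm38.p6). They were searched on both strands for the letters TGACTCA, the usual AP-1 site of Jun and Fos dimers, and TGACGTCA, the cyclic AMP response element that CREB and dimers of Jun with ATF factors recognise. The AP-1 letters were in 0 of the 15 windows and the response element in 1, against 5.20% and 1.79% of 32851 mouse promoter windows. A looser form, TGANTCA, was in 1 of the 15 windows, at the second annotated start of Map2k7, against 7.81% of all windows. Mapk10, which had the largest fall of the 10 genes after lesion and in culture, has 2 windows. Its second window, at another annotated start, held no match. The first window of Mapk10 is shown because it holds the letters of the response element, in capitals.
Mapk10, response element, chr5:103211285-103211584, minus strand, read 5′ to 3′ on that strand: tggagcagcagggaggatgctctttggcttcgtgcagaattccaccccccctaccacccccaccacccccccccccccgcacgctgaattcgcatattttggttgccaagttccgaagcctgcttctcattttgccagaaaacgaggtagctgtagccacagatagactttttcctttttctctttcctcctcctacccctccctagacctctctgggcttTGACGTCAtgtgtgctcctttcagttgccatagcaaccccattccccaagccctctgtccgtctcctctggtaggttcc
These letters began 29 bases before the start. A match of letters is no evidence of binding, and no binding was measured.

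Values are normalized read counts, that is, reads of a gene divided by 1 factor per library, and changes are differences of log2(value + 1), given with their SE. A gene is said to have risen or fallen where limma gave a Benjamini-Hochberg adjusted p under 0.05, adjusted over all genes tested. The libraries held 3.10 to 25.7 M reads each (M, mega), and 3 of them fewer than 4 M: E17.5 replicate 2, 12 h replicate 1 and 6 h replicate 3. The fewest reads behind any value were 55, for Map3k13, and no library was at 0 for any of the 10 genes. Neuron markers were present in every group. The summed level of 11 of them was 31215 to 47705 at E12.5, 95306 to 132388 at E17.5, 232112 to 247764 after sham surgery, 197306 to 212328 after lesion, 113070 to 132802 at 6 h and 70916 to 95989 at 36 h. Glial, fibroblast, endothelial and macrophage markers were also above 0 in every group, so in these bulk samples fewer cells of a type and less RNA per cell cannot be told apart. Numbers in the sample titles were 69 to 124 for operated ganglia, 84 to 87 for E12.5 and 336 to 350 for E17.5 and the cultures, so stage and any difference in library preparation that follows these numbers cannot be told apart.

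The 10 genes differed widely in where they were highest. Map3k13 and Mapk8 had their highest mean at E12.5. Map3k12, Map2k4, Mapk9 and Mapk10 had theirs in sham ganglia, Map2k7, Mapk8ip3 and Sarm1 in lesioned ganglia, and Nmnat2 at 12 h in culture. From the lowest to the highest group mean, Map3k13 spanned 6.49-fold and Mapk10 spanned 5.87-fold. Map2k7 and Mapk8 spanned least, 1.69-fold and 1.87-fold. Groups next to each other in the order of means mostly overlapped: 7 of 7 neighbouring pairs for Mapk8, 6 of 7 for Map3k13, Map2k7 and Nmnat2. It was 5 of 7 for Mapk8ip3, 4 of 7 for Map3k12 and Sarm1, 3 of 7 for Map2k4 and Mapk9, but 2 of 7 for Mapk10. For Mapk10 the order was sham (4939.9 ± 138, SD, n = 3), 6 h (4103 ± 194), 12 h (3152 ± 380.3), lesion (3056 ± 295), 24 h (1745 ± 213), E17.5 (1706 ± 166), 36 h (1281 ± 122) and E12.5 (842 ± 256). In that order 12 h and lesion overlapped, as did 24 h and E17.5.

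**Figure D1:**
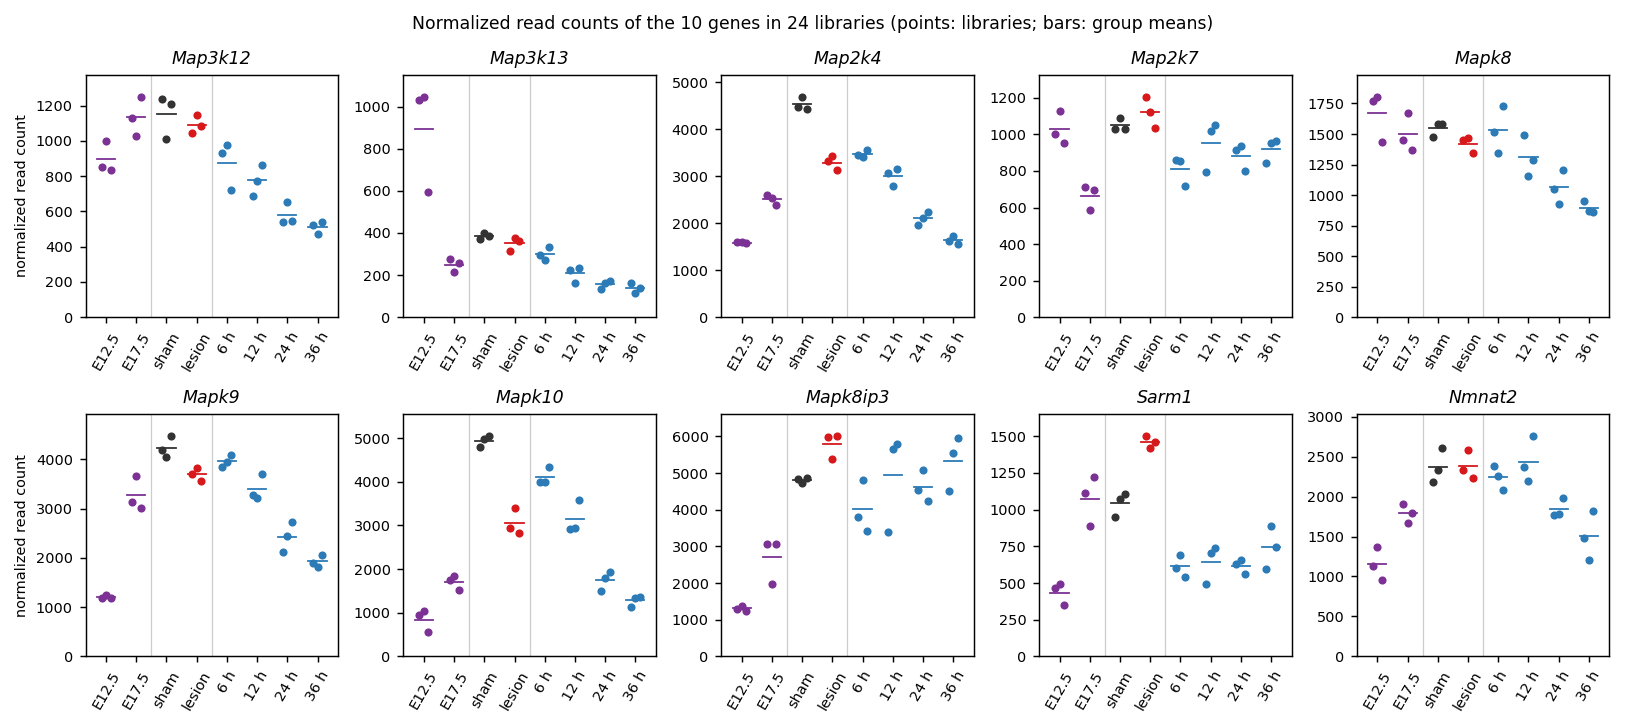
Normalized read counts (y axis, linear, from 0) of the 10 genes in each of the 24 libraries (points) by group (x axis), with bars at the means of 3 libraries. Mapk10, Map2k4 and Mapk9 peak in sham ganglia and step down through culture. Mapk8ip3 and Sarm1 have their highest means after lesion, where the libraries of Mapk8ip3 overlap those at 36 h.

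Levels can be set side by side between genes only per length, here per kilobase of all annotated exons of a gene. In sham ganglia the normalized read count per kilobase was 972 ± 30.9 for Map2k4, 624 ± 32.8 for Mapk9, 444 ± 12.4 for Mapk10, 411 ± 37.9 for Nmnat2 and 331 ± 5.12 for Mapk8ip3 (SD, n = 3). It was 274 ± 8.68 for Map2k7, 186 ± 14.4 for Sarm1, 135 ± 5.36 for Mapk8, 128 ± 13.9 for Map3k12 and 44.0 ± 1.59 for Map3k13. On this scale Nmnat2 lay above Sarm1 and Map3k12 above Map3k13 in sham ganglia, without overlap of the libraries' values. The place of a gene in this order depends on the length used. For Mapk8ip3, the exons add up to 14558 bases and the longest principal transcript has 5543. Shares among the JNK genes depend on the length used. The exons of Mapk8 add up to 11444 bases, while its longest principal transcript has 2587. Mapk8 held 11.2% of the JNK total per kilobase in sham ganglia by all exons and 27.3% by the principal transcript. The order in sham ganglia was Mapk9, Mapk10, Mapk8 by both lengths. At E12.5 the order did change: Mapk9 was highest by all exons (44.8%) and Mapk8 by the principal transcript (63.3%).

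Between E12.5 and E17.5, when sensory axons grow to and into their targets, 9 of the 10 genes changed. Of these, 7 rose (31.1% of the 14550 genes tested rose) and 2 fell (31.9% fell). Mapk9, Sarm1, Mapk10 and Mapk8ip3 rose by over 2-fold, whereas the upstream kinase gene Map3k13 fell by 3.48-fold. The median change of the 10 genes was 0.65, against -0.05 over all genes tested.

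At the top of the cascade, the 2 MAP3K genes went in opposite directions. Map3k13 stood at 1034, 1048.5 and 594 in the E12.5 libraries and at 274, 215 and 257 in the E17.5 libraries. All E12.5 values lay above all E17.5 values, although replicate 3 at E12.5 was well below the other two. The change was -1.80 ± 0.23 (adjusted p = 1.7e-04). Map3k12 stood at 851, 1001 and 836 at E12.5 and at 1128, 1026 and 1251 at E17.5, which were separate but close, a change of 0.34 ± 0.13 (adjusted p = 0.0479). The call of Map3k12 did not hold with edgeR on recovered reads (adjusted p = 0.0611), TMM factors (0.0828), no filter on low values (0.0610) or library totals as the scale (0.137), under which the median of all genes moved to -0.15. It was also lost without replicate 1 or 3 of either age, with adjusted p between 0.105 and 0.154.

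The 2 MAP2K genes also went in opposite directions. Map2k4 stood at 1593, 1598 and 1577 at E12.5 and at 2596, 2539.5 and 2398 at E17.5, a rise of 0.66 ± 0.10 (adjusted p = 6.1e-04). Map2k7 stood at 1005, 1130.1 and 954 at E12.5 and at 712, 585 and 698 at E17.5, a fall of 0.63 on the log2 scale, ± 0.13 (adjusted p = 0.00292). Neither pair of groups overlapped.

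Among the JNK genes, Mapk9 and Mapk10, the latter known for its expression in neurons, rose, and the widely expressed Mapk8 was not called. Mapk9 stood at 1183, 1242 and 1192 at E12.5 and at 3136, 3661 and 3013 at E17.5, a rise of 1.43 ± 0.12 (adjusted p = 1.4e-05). Mapk10 stood at 945, 1031 and 550.1 at E12.5 and at 1745, 1848 and 1524 at E17.5, a rise of 1.06 ± 0.23 (adjusted p = 0.00322). As for Map3k13, replicate 3 at E12.5 was the low library. Mapk8 overlapped between the ages, at 1774, 1807 and 1438 against 1451, 1675 and 1369 (change -0.16 ± 0.14, adjusted p = 0.348).

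The scaffold gene Mapk8ip3 stood at 1295, 1388 and 1239 at E12.5 and at 3058, 1975 and 3078 at E17.5, a rise of 1.02 ± 0.18 (adjusted p = 0.00113). The low E17.5 value is from replicate 2, the shallowest library of the series, and without it the rise was 1.23. Sarm1 stood at 466, 491 and 348 at E12.5 and at 1114, 885 and 1225 at E17.5, a rise of 1.31 ± 0.18 (adjusted p = 2.6e-04). Nmnat2 stood at 1132, 1372 and 954 at E12.5 and at 1907, 1668 and 1794 at E17.5, a rise of 0.65 ± 0.15 (adjusted p = 0.00505). Both genes were higher in every E17.5 library than in any E12.5 library.

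The cellular make-up of the samples moved at the same time. Of 11 neuron markers, 10 rose between E12.5 and E17.5, with a median change of 2.00, and 7 of 7 markers of dividing progenitors fell, with a median change of -2.91. Of 10 spinal cord neuron markers 6 could be tested and 5 fell, and their summed level was 584 to 1359 at E12.5 against 18.8 to 102 at E17.5. Schwann cell markers rose in 7 of 8 cases and satellite glia markers in 6 of 8. The part of these shifts in the changes of the 10 genes was not tested.

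After a peripheral lesion some of the 10 genes rose and others fell, in numbers near the share over all genes. In lesioned ganglia 5 of the 10 genes were called: Sarm1 and Mapk8ip3 rose (20.9% of the 14556 genes tested rose), and Mapk10, Map2k4 and Mapk9 fell (20.2% fell). The initiating kinase genes Map3k12 and Map3k13, as well as Map2k7, Mapk8 and Nmnat2, were not called. The median change of the 10 genes was -0.10, against -0.01 over all genes tested.

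Mapk10 showed the largest change of the 10. It stood at 4784, 4986 and 5049 after sham surgery and at 2949.8, 3390.0 and 2829.7 after lesion. Every lesion library lay far below every sham library, a fall of 0.70 on the log2 scale, ± 0.08 (1.62-fold, adjusted p = 1.3e-05). Mapk9 stood at 4185, 4037 and 4474 after sham surgery and at 3691, 3833 and 3552 after lesion, a smaller fall of 0.20 on the log2 scale, ± 0.07 (adjusted p = 0.0326). The call of Mapk9 was lost without sham replicate 1 or 3 or lesion replicate 1 or 3 (adjusted p between 0.0703 and 0.124) and in a fit over all 24 libraries (0.196). Mapk8 stood at 1477, 1586 and 1581 after sham surgery and at 1449.7, 1469.5 and 1342 after lesion. These groups did not overlap, but the change of -0.12 ± 0.07 was not called (adjusted p = 0.172).

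Upstream, Map2k4 fell and Map2k7 was not called. Map2k4 stood at 4479, 4698 and 4426 after sham surgery and at 3317, 3423 and 3129.7 after lesion, a fall of 0.46 on the log2 scale, ± 0.07 (1.38-fold, adjusted p = 1.2e-04). Map2k7 stood at 1030.3, 1089 and 1032 after sham surgery and at 1207, 1122 and 1038 after lesion, groups that overlapped (change 0.09 ± 0.08, adjusted p = 0.343). Map3k12 stood at 1239, 1009.6 and 1208 after sham surgery and at 1043, 1147 and 1086 after lesion (change -0.07 ± 0.09, adjusted p = 0.524). Map3k13 stood at 370.0, 398 and 384 after sham surgery and at 317, 377 and 359.6 after lesion (change -0.13 ± 0.09, adjusted p = 0.281). For both MAP3K genes the groups overlapped.

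Mapk8ip3 stood at 4850.2, 4728 and 4864 after sham surgery and at 5992, 5381 and 6015 after lesion, a rise of 0.27 ± 0.07 (1.20-fold, adjusted p = 0.00670). In a fit that shared 1 spread over all 24 libraries it was not called (adjusted p = 0.348), and its spread was larger among the cultures than among the operated ganglia. Sarm1 stood at 953, 1074 and 1106 after sham surgery and at 1502, 1419 and 1463 after lesion, a rise of 0.49 ± 0.08 (1.40-fold, adjusted p = 2.3e-04). The lesion libraries were close together and all above the sham libraries. Nmnat2, whose protein restrains SARM1, stood at 2179, 2333 and 2611 after sham surgery and at 2333, 2588 and 2234 after lesion. Its groups overlapped and the change was 0.01 ± 0.08 (adjusted p = 0.948).

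Of 11 neuron markers, 6 fell and 2 rose after lesion, with a median change of -0.26. Macrophage markers rose in 7 of 8 cases, and their summed level was 2117 to 3315 after lesion against 981 to 1067 after sham surgery, with none of the 8 genes at 0. Fibroblast markers rose in 7 of 7 cases. The part of these shifts in the changes of the 10 genes was not tested.

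**Figure D2:**
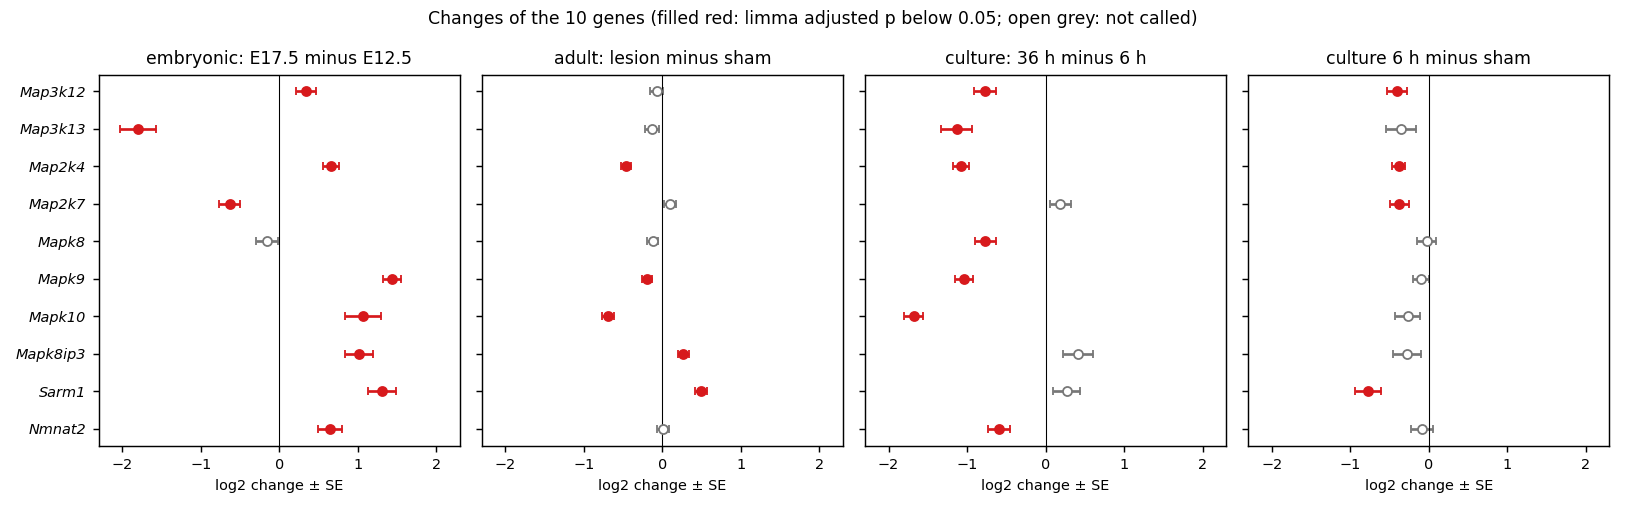
Log2 changes ± SE (x axis) of the 10 genes (y axis) in 4 comparisons of 3 against 3 libraries, filled where limma's adjusted p was below 0.05 and open where it was not. After lesion Mapk10 and Map2k4 lie to the left of 0 and Sarm1 and Mapk8ip3 to the right, and in culture Mapk10 falls furthest.

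In culture 7 of the 10 genes changed over the 4 times by limma's F test (45.7% of the 15006 genes tested did), and all 7 were lower at 36 h than at 6 h (25.3% of all genes fell). None of the 10 was called higher at 36 h (25.3% of all genes rose). The 7 were the kinase genes other than Map2k7, and Nmnat2. The median change from 6 to 36 h was -0.77 for the 10 genes and 0.02 over all genes tested.

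Mapk10 fell most. It stood at 3987, 3995 and 4326 at 6 h, at 2914, 2950.2 and 3590.3 at 12 h, at 1508, 1805 and 1921 at 24 h and at 1141, 1346 and 1357 at 36 h. No 2 consecutive times overlapped, and the change from 6 to 36 h was -1.68 ± 0.13 (3.21-fold lower, adjusted p = 5.2e-08). Mapk9 went from 3849.5, 3940.3 and 4079.7 at 6 h to 1905, 1813 and 2060.4 at 36 h, a change of -1.04 ± 0.11 (adjusted p = 2.8e-06). Mapk8 went from 1514, 1342 and 1731 to 949, 873 and 863, a change of -0.77 ± 0.14 (adjusted p = 2.6e-04). All 3 JNK genes were thus lower at 36 h in every library.

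Map2k4 went from 3457, 3420.3 and 3561 at 6 h to 1627, 1738 and 1565 at 36 h, a change of -1.08 ± 0.10 (2.12-fold lower, adjusted p = 5.7e-07). Map3k13 went from 297, 271 and 335 to 161, 113 and 138, a change of -1.13 ± 0.19 (adjusted p = 1.6e-04). Map3k12 went from 929, 975 and 723 to 521, 471 and 537, a change of -0.77 ± 0.14 (adjusted p = 3.7e-04). The low 6 h value of Map3k12 is from replicate 3, which had fewer than 4 M reads. Nmnat2 went from 2376, 2263 and 2077 to 1483, 1211 and 1821, a change of -0.59 ± 0.14 (1.51-fold lower, adjusted p = 0.00276).

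Map2k7, Mapk8ip3 and Sarm1 were not called. Map2k7 stood at 862, 854 and 719 at 6 h and at 844, 952 and 966 at 36 h (change 0.18 ± 0.13, adjusted p = 0.267). Mapk8ip3 stood at 3814, 4814 and 3424 at 6 h and at 4523, 5553 and 5948 at 36 h (change 0.42 ± 0.19, adjusted p = 0.0776). Sarm1 stood at 605, 693 and 539 at 6 h and at 596, 890.0 and 745 at 36 h (change 0.27 ± 0.17, adjusted p = 0.214). The groups overlapped for each of the 3. Mapk8ip3 was called higher without 6 h replicate 2 (adjusted p = 0.0349), 12 h replicate 1 (0.0119) or 36 h replicate 1 (0.0487). With library totals as the scale, under which the median of all genes moved from 0.02 to 0.21, all 3 were called higher, with changes of 0.37 for Map2k7, 0.61 for Mapk8ip3 and 0.46 for Sarm1 (adjusted p = 0.0316, 0.0157 and 0.0445).

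**Figure D3:**
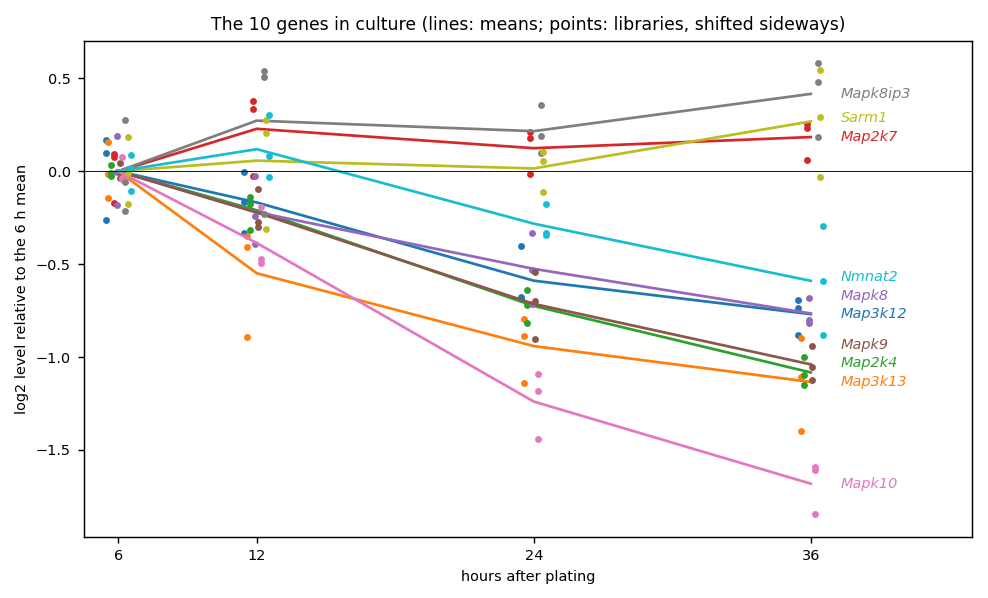
Log2 level relative to the 6 h mean (y axis) of the 10 genes at 6, 12, 24 and 36 h after plating (x axis), with lines through the means of 3 libraries and points for single libraries shifted sideways. The lines of 7 genes end below 0, Mapk10 lowest at -1.68, and those of Mapk8ip3, Sarm1 and Map2k7 end above it without a call.

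Step by step, the only calls fell between 12 and 24 h. Map2k4 (-0.51 ± 0.10, adjusted p = 0.00421), Mapk9 (-0.49 ± 0.11, adjusted p = 0.0116) and Mapk10 (-0.85 ± 0.13, adjusted p = 5.1e-04) fell there (6.74% of genes fell), and none of the 10 rose (4.82% rose). The call of Mapk9 was lost without 12 h replicate 3 (adjusted p = 0.0548) or 24 h replicate 1 (0.0849). From 6 to 12 h limma called 0 of the 10 genes (5.86% of genes rose and 4.72% fell), with 2 at an unadjusted p under 0.05, 0 by edgeR and 2 by DESeq2. From 24 to 36 h limma again called 0 (1.11% rose and 1.55% fell), with 4 at an unadjusted p under 0.05, 0 by edgeR and 2 by DESeq2. Without 12 h replicate 1, which is shallow, limma called 2 of the 10 from 6 to 12 h and 2 from 24 to 36 h. Over all genes the calls from 6 to 12 h were then 2618 in place of 1588, and those from 24 to 36 h were 1040 in place of 398.

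Of 11 neuron markers 6 fell between 6 and 36 h, none rose and 5 were not called, with a median change of -0.76. Among the 5, Tubb3 and Avil differed by 0.08 and 0.04. No naming rule picked these genes, so they do not stand for the list. Endothelial markers rose in 6 of 6 cases (median 0.99), markers of dividing cells in 5 of 6 tested and satellite glia markers in 5 of 8, with 1 lower. Macrophage and fibroblast markers rose in 4 of 7 tested cases each (medians 1.28 and 0.48). Of 8 Schwann cell markers 3 fell and 1 rose, and 4 of 6 red blood cell markers fell. The part of these shifts in the falls of the 7 genes was not tested.

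Sham ganglia were also compared with E17.5 and with 6 h cultures in 1 fit over all 24 libraries. Both comparisons share the sham libraries with the lesion comparison, so their values are not independent of it. With library totals as the scale the median of all genes from E17.5 to sham was -0.23 in place of -0.01. From E17.5 to adult sham ganglia 7 of the 10 genes were higher (28.1% of the 15935 genes tested were) and none was lower (28.5% were). Mapk10 was higher by 1.54 ± 0.16 (adjusted p = 2.7e-08), Mapk8ip3 by 0.86 ± 0.18 (2.4e-04), Map2k4 by 0.85 ± 0.08 (6.3e-09), Map2k7 by 0.66 ± 0.12 (4.8e-05), Map3k13 by 0.63 ± 0.19 (0.00685), Nmnat2 by 0.41 ± 0.14 (0.0145) and Mapk9 by 0.38 ± 0.10 (0.00247). The call of Nmnat2 was lost without E17.5 replicate 2 (adjusted p = 0.0550) or sham replicate 3 (0.0729). Map3k12, Mapk8 and Sarm1 differed by 0.02 ± 0.13, 0.05 ± 0.12 and -0.03 ± 0.17 and overlapped between the ages. Cell type markers also differed: 7 of 8 Schwann cell markers (median 2.77), 5 of 8 satellite glia markers (1.23) and 4 of 11 neuron markers (0.18) were higher in the adult. Lower were 6 of 7 markers of dividing progenitors (-3.54), 5 of 7 fibroblast markers (-1.72), 4 of 6 endothelial markers (-1.21), 5 of 6 red blood cell markers and 2 of the neuron markers. The part of these shifts in the differences of the 7 genes was not tested.

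At 6 h in culture 4 of the 10 genes were lower than in sham ganglia (24.5% of genes were) and none was higher (23.3% were). Sarm1 was lower by 1.71-fold (-0.77 ± 0.17, adjusted p = 5.1e-04), where its lesion value had been above sham. Map3k12 (-0.40 ± 0.13, adjusted p = 0.0123), Map2k4 (-0.38 ± 0.08, adjusted p = 5.2e-04) and Map2k7 (-0.38 ± 0.12, adjusted p = 0.0118) were the others. Without 6 h replicate 3 the calls of Map3k12 (adjusted p = 0.104) and Map2k7 (0.0742) were lost, and Map3k12 was also lost without sham replicate 1 (0.0596). In a fit with the libraries of these 2 groups only, Map3k13 (-0.35, adjusted p = 0.0242) and Mapk10 (-0.27, adjusted p = 0.0206) were also called lower. Nmnat2 differed by -0.08 ± 0.14 (adjusted p = 0.643). Of 11 neuron markers 7 were lower and 1 higher at 6 h, with a median of -0.57, and 6 of 8 Schwann cell markers were lower, with a median of -2.49. Satellite glia markers were lower in 6 of 8 cases, fibroblast markers in 6 of 7, macrophage markers in 4 of 8 and red blood cell markers in 6 of 6, while 3 of 6 endothelial markers were higher. The part of these shifts was not tested.

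Ratios between pairs of the genes within a library hardly depend on how that library was scaled. They can still depend on its mix of cell types, and the part of that mix was not tested. In each library under 4 M reads, Map2k7 to Map2k4 was the lowest of its group (-2.12 at E17.5, -2.31 at 6 h, -1.95 at 12 h). Mapk10 to Mapk8 was also lowest there (0.14, 1.32 and 0.97). No 36 h library was that shallow, and the part of depth was not tested. The ratios were tested by exact two-sided permutation over libraries, for 4 ratios in 3 experiments, with p-values adjusted over the 12 tests. With 3 against 3 libraries the smallest possible p is 0.1, so the embryonic and lesion ratios could not pass 0.05, and for them the statement is whether the groups overlapped. The culture test used an F statistic over 15400 regroupings of the 12 libraries, with a smallest possible p of 6.49e-05.

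The ratio of Sarm1 to Nmnat2 passed its test in culture, and it was higher in every E17.5 library than in any E12.5 library and in every lesion library than in any sham library. The log2 ratio of Sarm1 to Nmnat2 was -1.48, -1.45 and -1.28 at E12.5 and -0.91, -0.78 and -0.55 at E17.5, from lowest to highest. It was -1.24, -1.19 and -1.12 after sham surgery and -0.87, -0.63 and -0.61 after lesion. In both experiments the groups did not overlap (difference 0.66 and 0.48, each with exact p = 0.1, the smallest possible, and adjusted p = 0.12). In culture the mean ratio was -1.87 ± 0.15 at 6 h, -1.93 ± 0.31 at 12 h, -1.58 ± 0.20 at 24 h and -1.02 ± 0.50 at 36 h (SD, n = 3; exact permutation p = 0.00591, adjusted p = 0.0236). The 36 h libraries were at -1.31, -1.29 and -0.44, and without replicate 2, which was the highest, the difference between 36 and 6 h was 0.57 in place of 0.86. After lesion the log2 change was 0.49 for Sarm1 and 0.01 for Nmnat2. From 6 to 36 h in culture it was -0.59 for Nmnat2 and 0.27 for Sarm1, which was not called.

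The ratio of Map2k7 to Map2k4 passed its test in culture, was higher in every lesion library than in any sham library and lower in every E17.5 library than in any E12.5 library. The log2 ratio of Map2k7 to Map2k4 differed by -1.29 between the embryonic ages and by 0.56 between lesion and sham, both without overlap (exact p = 0.1 and adjusted p = 0.12 for each). In sham libraries it lay between -2.12 and -2.10, and in lesion libraries between -1.61 and -1.46. In culture its mean went from -2.10 ± 0.18 at 6 h through -1.67 ± 0.26 and -1.26 ± 0.20 to -0.84 ± 0.13 at 36 h (SD, n = 3; exact permutation p = 1.3e-04, adjusted p = 0.00156).

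The ratio of the neuronal Mapk10 to the widely expressed Mapk8 fell in culture, and its groups were also apart in the embryonic and lesion experiments, in opposite directions. Neuron markers had median changes of 2.00 from E12.5 to E17.5, -0.26 after lesion and -0.76 from 6 to 36 h. Their part in this ratio was not tested. The log2 ratio of Mapk10 to Mapk8 differed by 1.22 between E17.5 and E12.5 and by -0.57 between lesion and sham, both without overlap (exact p = 0.1 and adjusted p = 0.12 for each). In culture it fell from 1.43 ± 0.13 at 6 h to 0.51 ± 0.22 at 36 h (SD, n = 3; exact permutation p = 0.00571, adjusted p = 0.0236). As a share of the 3 JNK genes per kilobase of exon, Mapk10 was 36.3% to 37.9% in sham libraries and 28.3% to 30.5% in lesion libraries. It was 33.9% to 34.1% at 6 h and 22.0% to 26.0% at 36 h. With the length of the principal transcript the means were 31.4% after sham surgery, 24.1% after lesion, 28.4% at 6 h and 19.0% at 36 h, in the same order. Mapk9 held 44.8% ± 4.57 of the JNK total at E12.5 and 62.9% ± 0.80 at E17.5 by all exons (SD, n = 3), and 25.5% ± 2.84 and 46.1% ± 0.56 by the principal transcript.

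The log2 ratio of Map3k12 to Map3k13 was near 0 at E12.5 (0.05 ± 0.40, SD, n = 3) and 2.19 ± 0.13 at E17.5, without overlap (exact p = 0.1, adjusted p = 0.12). It overlapped between lesion and sham (difference 0.06, exact p = 0.9, adjusted p = 0.9) and among the culture times (difference between 36 and 6 h 0.36, exact permutation p = 0.366, adjusted p = 0.399).

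**Figure D4:**
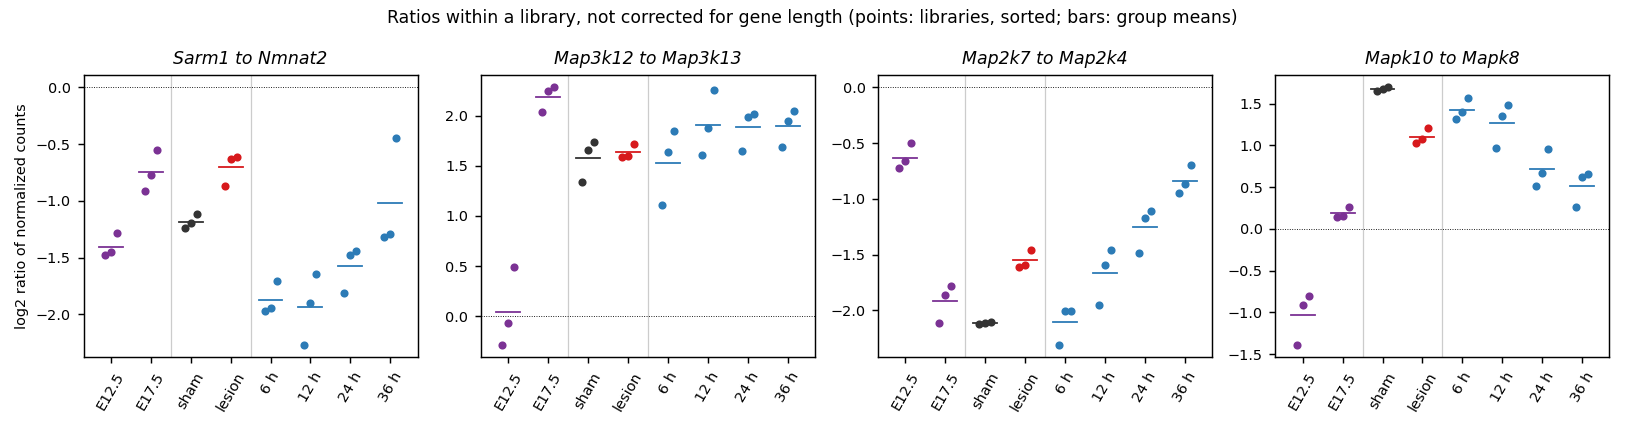
Log2 ratio of normalized counts of 2 genes in the same library (y axis, not corrected for gene length) by group (x axis), with points for libraries sorted by value and bars at the means of 3. The ratio of Map2k7 to Map2k4 climbs from -2.10 at 6 h to -0.84 at 36 h, and that of Sarm1 to Nmnat2 is higher after lesion than after sham surgery in every library.

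Across the 24 libraries, which share groups and so are not independent points, Mapk10 followed Map2k4 (Pearson r = 0.950 on the log2 scale), Mapk9 (0.921) and Nmnat2 (0.902). Mapk8ip3 ran against Map3k13 (r = -0.655) and Mapk8 (-0.550). Among 10399 genes with a mean of at least 100, the genes most like Nmnat2 were Map3k9 (r = 0.937), a mixed-lineage kinase gene of the same MAP3K family as DLK, Kcnb2 (0.928) and Nptx1 (0.927). Those most like Sarm1 were Lzts3 (0.957), Aacs (0.945) and Pik3cd (0.938), and those most like Map3k12 were Tspyl3 (0.941), Nuak1 (0.934) and Klhdc8b (0.933).

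Around the 10 genes, 4 lists of other pathway genes were described: 25 neighbouring kinases, scaffolds and ubiquitin ligase genes, 10 phosphatases that act on JNK or related kinases, 27 JNK substrates and injury target genes, and 29 genes of NAD metabolism and axon degeneration. Between E12.5 and E17.5, 11 of 25 neighbours rose and 8 fell (median change 0.40), 2 of 10 phosphatases rose and 5 fell (-0.46), 11 of 26 tested substrates and targets rose and 8 fell (0.21), and 6 of 25 tested NAD and degeneration genes rose and 8 fell (-0.25). Over all genes 31.1% rose and 31.9% fell, with a median of -0.05, so the falls of neighbours, of substrates and targets and of NAD and degeneration genes were near the share over all genes. Map3k5, the gene of the stress kinase ASK1, rose from 48.3 to 234 (2.53 ± 0.45, adjusted p = 0.00120) and Map3k9 from 816 to 1895 (1.26 ± 0.21, adjusted p = 7.6e-04). Mapk7, encoding ERK5, and Map2k5, its activator, fell by 1.00 and 0.82 on the log2 scale.

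Dusp26, a phosphatase gene with high expression in neurons, rose from 218 to 1346 (2.63 ± 0.20, adjusted p = 8.4e-06), while Dusp4 fell by 2.00 on the log2 scale, ± 0.18, from 1689 to 412 (adjusted p = 2.5e-05). The phosphatase genes Dusp22 and Ppm1d went from 313 to 875 (adjusted p = 1.1e-04) and from 489.9 to 179 (adjusted p = 2.8e-04). Among substrates and targets, the heavy neurofilament gene Nefh rose between E12.5 and E17.5 from 320.4 to 10477 (5.07 ± 0.21, adjusted p = 5.8e-07) and Gal, which encodes the neuropeptide galanin, from 4.53 to 166 (4.93 ± 0.32, adjusted p = 3.8e-06). The peptidase gene Ecel1 fell from 234 to 4.25 (-5.94 ± 0.71, adjusted p = 1.2e-04). The E12.5 mean of Gal and the E17.5 mean of Ecel1 lie under the filter value of 10, so the sizes of both changes are uncertain. At E17.5, 1 read counts 3.53 in replicate 2 and 2.31 in replicate 3. Jund, of the Jun family of transcription factors, fell from 2590.4 to 939.9 (-1.84 ± 0.55, adjusted p = 0.0199). Capn1, the gene of the protease calpain 1 that cuts neurofilaments in dying axons, rose by 2.70 ± 0.28 and Cast, which encodes its inhibitor calpastatin, by 2.16 ± 0.38. Casp6, an executioner caspase gene, had a change of -1.62 ± 0.19 and Nadk2, the gene of the mitochondrial NAD kinase, one of -1.10 ± 0.21.

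After lesion 20 of the 27 substrates and targets rose and 2 fell, with a median change of 0.53 against -0.01 over all genes, of which 20.9% rose and 20.2% fell. This list holds genes known to rise after nerve injury, so its direction is not independent evidence. Sprr1a, an injury-induced gene that promotes axon growth, rose from 469 to 19137 (5.37 ± 0.30, adjusted p = 1.5e-04), and Ecel1, an injury-induced peptidase gene, from 48.4 to 939 (4.21 ± 0.17, adjusted p = 4.2e-08). Nefh, which encodes the heavy neurofilament, had a log2 change of -0.81 and Stmn3, a microtubule regulator, one of -0.32, both called. Jun and Atf3, the transcription factor genes most often read as the output of this cascade and named here after their values were seen, rose from 2007 to 4905 (1.28 ± 0.11, adjusted p = 5.0e-06) and from 557 to 9207 (4.02 ± 0.14, adjusted p = 1.7e-07). The DLK and LZK genes, upstream of these, were not called in the same libraries.

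Of 24 tested neighbours 6 rose and 3 fell after lesion (median 0.03). Over all genes 20.9% rose and 20.2% fell, also the shares to set beside the next 2 lists, so the rises of neighbours were near that share. Tnik, a MAP4K gene whose protein can activate the JNK branch, rose from 864 to 3158 (1.86 ± 0.10, adjusted p = 2.2e-07), and Mapk14, the gene of p38 alpha, from 979 to 1588 (0.69 ± 0.07, adjusted p = 1.2e-05). Mapk12, encoding p38 gamma, fell by 0.50 on the log2 scale and Map3k5 by 0.35. Of 9 tested phosphatases 3 rose and 1 fell (median 0.07): Dusp1 rose by 0.74 ± 0.13 and Dusp8 by 0.31 ± 0.08, and Dusp26 fell by 0.23 on the log2 scale. Of 27 tested NAD and degeneration genes 9 rose and 4 fell (median 0.15). Pnp, a purine salvage enzyme gene, rose from 230.1 to 389 (0.75 ± 0.11, adjusted p = 1.3e-04). Sirt3, which encodes a mitochondrial NAD-dependent deacetylase, changed by -0.61 and Zdhhc17, whose product attaches palmitate to NMNAT2, by -0.41. Nmnat1 and Nmnat3, the nuclear and mitochondrial relatives of Nmnat2 and named after their values were seen, were low, at 34.8 and 11.4 after lesion against 54.8 and 16.1 after sham surgery. Nmnat1 was called lower (-0.64 ± 0.21, adjusted p = 0.0243) and Nmnat3 was not called (adjusted p = 0.319).

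In culture from 6 to 36 h, 4 of 24 tested neighbours rose and 8 fell (median -0.17), and of 10 phosphatases none rose and 4 fell (-0.15). Of 27 substrates and targets 9 rose and 10 fell (-0.09), and of 27 tested NAD and degeneration genes 6 rose and 3 fell (0.01). Over all genes 25.3% rose and 25.3% fell, with a median of 0.02. Map3k11, the gene of mixed-lineage kinase MLK3, rose from 247 to 712 (1.54 ± 0.19, adjusted p = 1.0e-05) and Tnik from 903 to 1636 (0.85 ± 0.11, adjusted p = 1.9e-05). Fbxo45, a subunit of the ubiquitin ligase that degrades DLK and NMNAT2, fell from 2358 to 927 (-1.34 ± 0.11, adjusted p = 1.7e-07), and Map3k5 fell by 1.22 on the log2 scale. Dusp26 and Dusp8 fell by 1.68 and 1.20 on the log2 scale. Sprr1a rose from 29.8 to 2979 (6.73 ± 0.28, adjusted p = 1.7e-10) and Ecel1 from 54.6 to 1319 (4.55 ± 0.22, adjusted p = 7.5e-10), while the immediate early gene Fos fell by 1.38 and Stmn2, a JNK substrate that sustains axons, by 1.16 on the log2 scale. Casp6 rose by 1.47 ± 0.29 and Bax, which permeabilizes mitochondria in dying cells, by 1.28 ± 0.22, while Sirt3 fell by 1.09 and Nampt, the rate-limiting enzyme gene of NAD salvage, by 0.80 on the log2 scale.

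**Figure D5:**
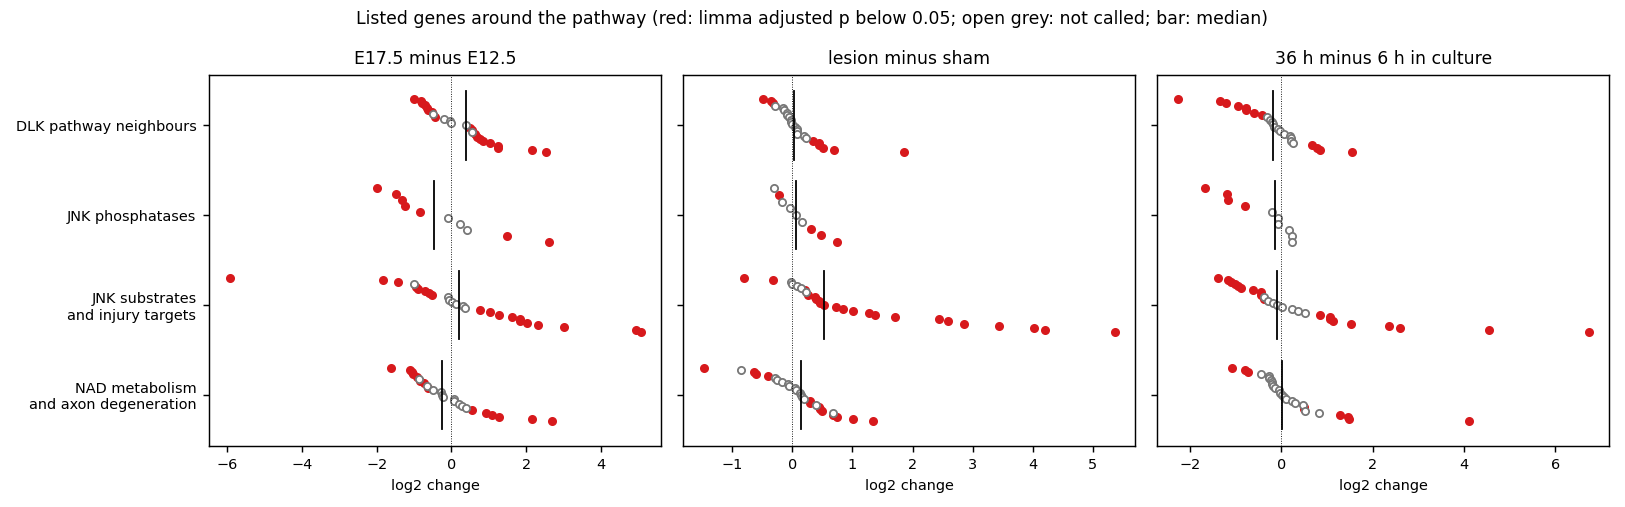
Log2 changes (x axis) of the genes of the 4 pathway lists (y axis) in 3 comparisons, red where limma's adjusted p was below 0.05, with a bar at each list's median. After lesion 20 of 27 JNK substrates and injury targets are red and to the right of 0.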

How the data were processed

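The authors deposited 1 table of normalized signal values for 24 libraries. Reads were aligned to mm10 with TopHat, per the submitters' processing notes, and the sources used here do not give the annotation or counting tool. Within each library of the deposited signal table, values were whole multiples of 1 step, so the table holds read counts divided by 1 factor per library. Dividing by the step gave whole reads, within a tolerance of 0.1, for 100% of 339603 values that came to 1000 reads or fewer. The design had foreseen raw counts or values such as FPKM. The values were treated as normalized, so limma came before the count tests. Recovered depth was 3.10 to 25.7 M reads per library. All columns were mapped to samples (0 left over).

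Tests used limma 3.58.1 in R 4.3.3 (trend and robust) on log2(value + 1) for genes at 10 or more in at least 3 libraries of a fit. Adjusted p-values are Benjamini-Hochberg's, computed over every gene tested, and were called under 0.05. Embryonic, operated and cultured samples were fitted apart, and comparisons across experiments used all 24. Ratios were tested by exact permutation over libraries. Tests were tried on simulated counts beforehand. Alternatives were edgeR 4.0.16 and DESeq2 1.42.0 on recovered reads, TMM and library-total scaling, pseudocounts of 0.1 and 8, no filter, 1 fit over 24 libraries (or, across experiments, a fit with the 2 groups only), the library number series as covariate for lesion and sham, and leaving out each library. Leaving out libraries under 4 M reads, and principal transcript lengths, were added after seeing the data. Replicates were numbered in accession order and pair nothing.

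The 10 genes and the gene lists were chosen with earlier results of these data known. From each list, up to 2 rises and 2 falls were named, the largest among called genes whose groups did not overlap and whose higher mean was at least 100. One gene that this rule names is not reported here. The 3 most alike genes were named for Map3k12, Sarm1 and Nmnat2. The listed symbols Naprt and Adgre1 were matched to the table as Naprt1 and Emr1. Of all genes, 83 held values equal to a trimmed mean over libraries, and 0 of the 10 genes did.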

Additional observations from a re-analysis of the deposited data

How the results depend on the processing

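Of 1570 alternative values for changes of single genes, 1494 kept their direction and their side of the threshold, 27 moved past it, 23 fell back from it and 26 changed sign. Of 1256 alternative counts of called genes 1178 were within 1.5 times the reported count, 45 were higher and 33 lower. Of 84 ratio values 1 changed sign and 83 kept direction and call or, without 1 library, stayed within 1 SD. Without 1 library 8 to 9 of the 10 genes were called between E12.5 and E17.5 (7670 to 8758 of all genes). The counts were 7 to 8 from 6 to 36 h (6506 to 8423) and 6 to 7 between E17.5 and sham (8066 to 8660). With library totals, under which the median of all genes moved to 0.21, all 10 were called from 6 to 36 h, 3 of them higher. The count over all genes there stayed within 1.5 times the reported 7589. After lesion 4 to 5 genes were called without 1 library (4560 to 5718 of all genes). In 1 fit over 24 libraries 3 of the 10 and 2615 of all genes were called, against 5 and 5990. From 6 to 12 h DESeq2 called 2 of the 10 genes, with a count over all genes within 1.5 times limma's 1588. Without 1 library at a time 0 to 2 were called, and 880 to 2618 of all genes. From 12 to 24 h DESeq2 called 5, with a count over all genes within 1.5 times limma's 1734. Without 1 library 2 to 4 were called, with 731 to 2564 of all genes, and 2983 without the libraries under 4 M reads. From 24 to 36 h, 2 of the 10 genes were called by DESeq2, 1 in the fit over 24 libraries, 2 without the libraries under 4 M reads, and 0 to 2 without 1 library. Over all genes the count there was 249 without a filter, 1079 with DESeq2, 823 in the fit over 24 libraries, 1374 without the libraries under 4 M reads and 67 to 1040 without 1 library. At 6 h against sham 2 to 4 of the 10 genes and 6403 to 7273 of all genes were called without 1 library.

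Changes near 0 that changed sign were the following. After lesion Nmnat2 was -0.00611 with TMM factors. From 12 to 24 h, Mapk8ip3 was 0.0429 and Sarm1 0.0575 with library totals. For sham against E17.5, Map3k12 was -0.0500 without the libraries under 4 M reads. For 6 h against sham, Mapk8 was 0.00686 with edgeR. Without 1 library at a time the lesion change of Nmnat2 ran from -0.0526 to 0.0783, the change of Sarm1 from 6 to 12 h from -0.0538 to 0.241, and from 12 to 24 h those of Mapk8ip3 from -0.309 to 0.0774 and of Sarm1 from -0.226 to 0.0687. From 24 to 36 h Map2k7 ran from -0.0105 to 0.121. For sham against E17.5, Map3k12 ran from -0.0500 to 0.113, Mapk8 from -0.0114 to 0.134 and Sarm1 from -0.165 to 0.0697. For 6 h against sham, Mapk8 ran from -0.118 to 0.0656. The log2 ratio of Map3k12 to Map3k13 after lesion ran from -0.0602 to 0.139. The cause was not tested for any of these. No paired analysis was possible because the labels give no replicate numbers that groups share. With the series of library numbers in the titles as a covariate, lesion against sham gave 5 calls among the 10 genes and 5681 over all genes, and none of the 10 genes crossed the threshold or changed sign. Values behind fewer reads, such as those of Map3k13 and Sarm1 in the libraries under 4 M reads, carry a larger counting error. The libraries under 4 M reads also differed from their groups in a shared direction. In each of them Map3k12, Map2k7, Mapk8ip3 and Sarm1 had the lowest value of the group, and Mapk8 had the highest. Mapk8ip3 was at 3386 in 12 h replicate 1, against 5655 and 5783 in replicates 2 and 3. The part of depth in these differences was not tested.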

Other observations

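Of the 10 phosphatase genes, 6 were higher and 1 was lower at 6 h in culture than in sham ganglia, with a median change of 1.01 against -0.06 over all genes, of which 23.3% were higher and 24.5% lower. Genes named in this paragraph were chosen after their values were seen. Dusp10, a phosphatase of JNK and p38, was at 586 against 84.6 (2.78 ± 0.15, limma adjusted p = 6.9e-13), and Dusp1 was at 1131 against 344 (1.72 ± 0.15, adjusted p = 2.9e-09). Dusp26 was lower (-0.51 ± 0.17, adjusted p = 0.0171). Of 27 substrates and injury targets 12 were higher and 4 lower (median 0.37). Jun, Atf3 and Fos were higher by 1.76 ± 0.22, 4.19 ± 0.20 and 5.13 ± 0.20. Sprr1a, which rose after lesion, was at 29.8 at 6 h against 469 in sham ganglia (-4.03 ± 0.45, adjusted p = 1.5e-07) and at 2979 at 36 h. Ecel1 and Gal, which also rose after lesion, were not called at 6 h (adjusted p = 0.790 and 0.782). These values share the sham libraries with the lesion comparison, and the neuron and glial markers given above for 6 h against sham moved with them, in a part that was not tested.

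Between E17.5 and adult sham ganglia, of 28 tested genes of NAD metabolism and axon degeneration 10 were higher and 9 lower (median 0.05 against -0.01 over all genes, of which 28.1% were higher and 28.5% lower). Genes named in this paragraph were also chosen after their values were seen. Bax was lower in the adult (-1.30 ± 0.24, adjusted p = 8.2e-05), and Capn1 (1.58 ± 0.24), Zdhhc17 (0.75 ± 0.11) and Nmnat1 (1.08 ± 0.30, adjusted p = 0.00344) were higher. Of the 27 substrates and injury targets 12 were higher and 5 lower (median 0.27), and the death genes Hrk (-2.67 ± 0.39) and Bcl2l11 (-1.38 ± 0.16) of that list were lower. Between the same libraries 6 of 7 markers of dividing progenitors were lower (median -3.54) and 7 of 8 Schwann cell markers higher (2.77), in a part that was not tested.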
